A study of Rattus norvegicus with 26 samples.

Results

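Mcm2, Mcm3, Mcm4, Mcm5, Mcm6, Mcm7, Pcna, Rrm1, Rrm2 and Tyms are genes of replication licensing and nucleotide synthesis, and their mRNA was followed in rat hearts before birth and in adult life. They were chosen by name, as the subunits of the replicative helicase, the sliding clamp and the enzymes that make DNA precursors, and not by a measured value. Earlier results of these data were known when they were chosen. Of these 10 genes, 9 had a probe that carried their name, and Rrm1, the large subunit of ribonucleotide reductase, had none and is not reported further. The 9 genes were read by 10 of 22523 probes, since Mcm5 had a second probe, and they stand among 13337 genes with a named probe.

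Before a cell copies its DNA, the MCM proteins Mcm2 to Mcm7 are loaded at replication origins as a ring of 6 subunits, a step called licensing, and in S phase this ring unwinds the DNA ahead of the polymerases. Pcna is the clamp that keeps polymerases on the template. Ribonucleotide reductase, built from Rrm1 and Rrm2, turns ribonucleotides into deoxyribonucleotides, and thymidylate synthase, Tyms, makes the thymidine nucleotide. Many of these genes are known targets of E2F transcription factors and are transcribed as cells enter S phase. Heart muscle cells of rodents divide before birth and mostly leave the cell cycle soon after it.

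The study compared SHRSP, the stroke-prone spontaneously hypertensive rat, an inbred strain with high blood pressure and an enlarged left ventricle, and F344, the Fischer inbred strain with a small left ventricle. Male hearts were taken at 14 weeks of age or on embryonic day 20 (E20), which gave 7 arrays of SHRSP at week 14, 4 of SHRSP at E20, 8 of F344 at week 14 and 7 of F344 at E20. The groups differ by strain and age alone as labelled, with no altered gene and no treatment, and each array held RNA of a single animal. The values are log2 intensities after quantile normalization, which gives every array the same distribution, with a median of 7.16, a lowest value of 6.64 and a highest of 15.53.

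The sample labels call the E20 tissue whole heart and give TRIzol for every sample, whereas the study's methods describe E20 ventricles without atria extracted with a column kit and the left ventricular free wall extracted with TRIzol at week 14. Stage, dissected tissue and extraction kit therefore cannot be told apart in the comparisons of week 14 with E20. Ventricular cardiomyocyte markers were high on every array, with the mean of 9 markers between 13.75 and 13.94 in SHRSP at week 14, 13.01 and 13.30 in SHRSP at E20, 13.60 and 13.85 in F344 at week 14 and 13.04 and 13.32 in F344 at E20. Within groups the arrays correlated at 0.980 or more over all probes. The study had removed arrays of low correlation within their group, fetal SHRSP arrays among them, so high correlations were in part fixed by that step. The fetal SHRSP arrays fell into closest pairs, replicate 1 with replicate 2 (r = 0.998) and replicate 3 with replicate 4 (r = 0.997), and nothing in the labels says whether the animals of a pair share a litter.

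E2F proteins bind a short motif near the start of many replication genes, so the 250 bases before the RefSeq start of each member (GRCr8 assembly) were searched on both strands for TTTCCCGC, TTTCGCGC, TTTGCCGC and TTTGGCGC. The windows of 8 of the 10 genes were available (the 2 others were Mcm4 and Rrm2), and 5 of them, or 62.5%, held at least 1 motif, against 580 of 33469 promoter windows (1.73%). Counted by gene, the share was 33.3% of 18 genes of origin licensing and firing and 18.2% of 11 E2F and pocket protein genes. It was 12.5% of 32 replication fork genes, 12.5% of 8 reference genes and 7.69% of 13 mitotic genes. For deoxynucleotide supply and for purine and pyrimidine synthesis it was 6.25% of 16 genes each. The 5 members with a motif are shown with every match in capitals, from 5′ to 3′ on the strand of the gene and ending at the base before the start. Matches on opposite strands that overlap run together, so that the 12 capitals of Mcm2 hold TTTCGCGC on each strand.
Mcm2: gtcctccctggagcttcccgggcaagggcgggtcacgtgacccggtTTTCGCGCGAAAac
Mcm5: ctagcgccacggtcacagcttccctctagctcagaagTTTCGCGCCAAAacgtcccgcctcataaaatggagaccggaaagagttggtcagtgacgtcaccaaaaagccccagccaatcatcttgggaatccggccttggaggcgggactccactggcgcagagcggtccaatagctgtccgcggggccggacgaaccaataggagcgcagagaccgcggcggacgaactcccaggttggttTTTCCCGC
Mcm6: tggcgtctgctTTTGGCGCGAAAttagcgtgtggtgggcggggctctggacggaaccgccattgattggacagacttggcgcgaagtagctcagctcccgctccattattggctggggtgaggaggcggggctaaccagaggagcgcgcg
Mcm7: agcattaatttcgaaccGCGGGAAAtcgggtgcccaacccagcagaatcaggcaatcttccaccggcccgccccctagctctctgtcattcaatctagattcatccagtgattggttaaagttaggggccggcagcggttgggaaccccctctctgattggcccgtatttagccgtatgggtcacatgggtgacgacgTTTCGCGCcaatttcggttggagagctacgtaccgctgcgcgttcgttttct
Tyms: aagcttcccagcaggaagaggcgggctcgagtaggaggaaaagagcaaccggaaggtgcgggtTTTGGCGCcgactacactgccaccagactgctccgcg
These stretches lie at chr4:122918095-122918154 (minus strand), chr19:13488563-13488812 (plus strand), chr13:42404353-42404502 (minus strand), chr12:22163179-22163428 (minus strand) and chr9:120776084-120776183 (minus strand). In Mcm2 and Mcm5 the match nearest to the start ended 3 and 1 bases before it, whereas in Mcm6 the nearest ended 128 bases before it. The windows of Mcm3, Pcna and Rrm1 held none of the 4 motifs. The 150 bases before the start of Mcm3, at chr9:30733747-30733896 (minus strand), are shown in lower case for comparison.
Mcm3: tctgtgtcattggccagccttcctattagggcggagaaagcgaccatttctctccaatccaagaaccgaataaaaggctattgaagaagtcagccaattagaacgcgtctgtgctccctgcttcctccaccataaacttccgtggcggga
This Mcm3 stretch held CCAAT or its complement at 3 places and GGGCGG at 1. CCAAT was found in 34% of all windows and also in those of Mcm5, Mcm6, Mcm7, Pcna and Rrm1. GGGCGG was found in 30.5% and also in Mcm2, Mcm6, Mcm7, Pcna and Rrm1. A match is a string of letters and not a measured binding site, and binding of any factor was not measured here.

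The comparison of week 14 with E20 asked how the replication genes differ between the adult and the fetal heart. All 9 measured genes were lower at week 14 than at E20 in both strains, with measured folds from 1.61 (Mcm5) to at least 18.2 (Rrm2) in SHRSP and from 1.69 (Mcm5) to at least 18.4 (Rrm2) in F344. Each passed an adjusted p of 0.05 in limma, a linear model fitted to all probes and all 4 groups with Benjamini-Hochberg adjustment over the 22523 probes. Of all probes, 17% passed as lower and 15.7% as higher in SHRSP, and 18.6% passed as lower and 17.2% as higher in F344. Many of these probes are dim. Of 6214 probes with a mean above 8 in any group, which include all 9 genes, 2438 passed as lower in SHRSP and 2504 in F344. Rrm2, Tyms, Mcm2, Mcm3, Mcm4 and Mcm5 meet that filter only through their E20 means. With the study's limit of 1.5 log2 units added, 5 of 9 genes remained in each strain (Rrm2, Mcm6, Mcm2, Pcna and Mcm7), against 0.963% of all probes lower by that much in SHRSP and 0.879% in F344. Among the 6214 brighter probes, 217 in SHRSP and 198 in F344 were lower by that much. The median difference of the 9 genes was -1.67 in SHRSP and -1.60 in F344, against 0.004 and 0.005 for all probes. For all 9 genes the highest week 14 array lay below the lowest E20 array in both strains, which held for 13.3% of all probes in SHRSP and 9.41% in F344.

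**Figure D1:**
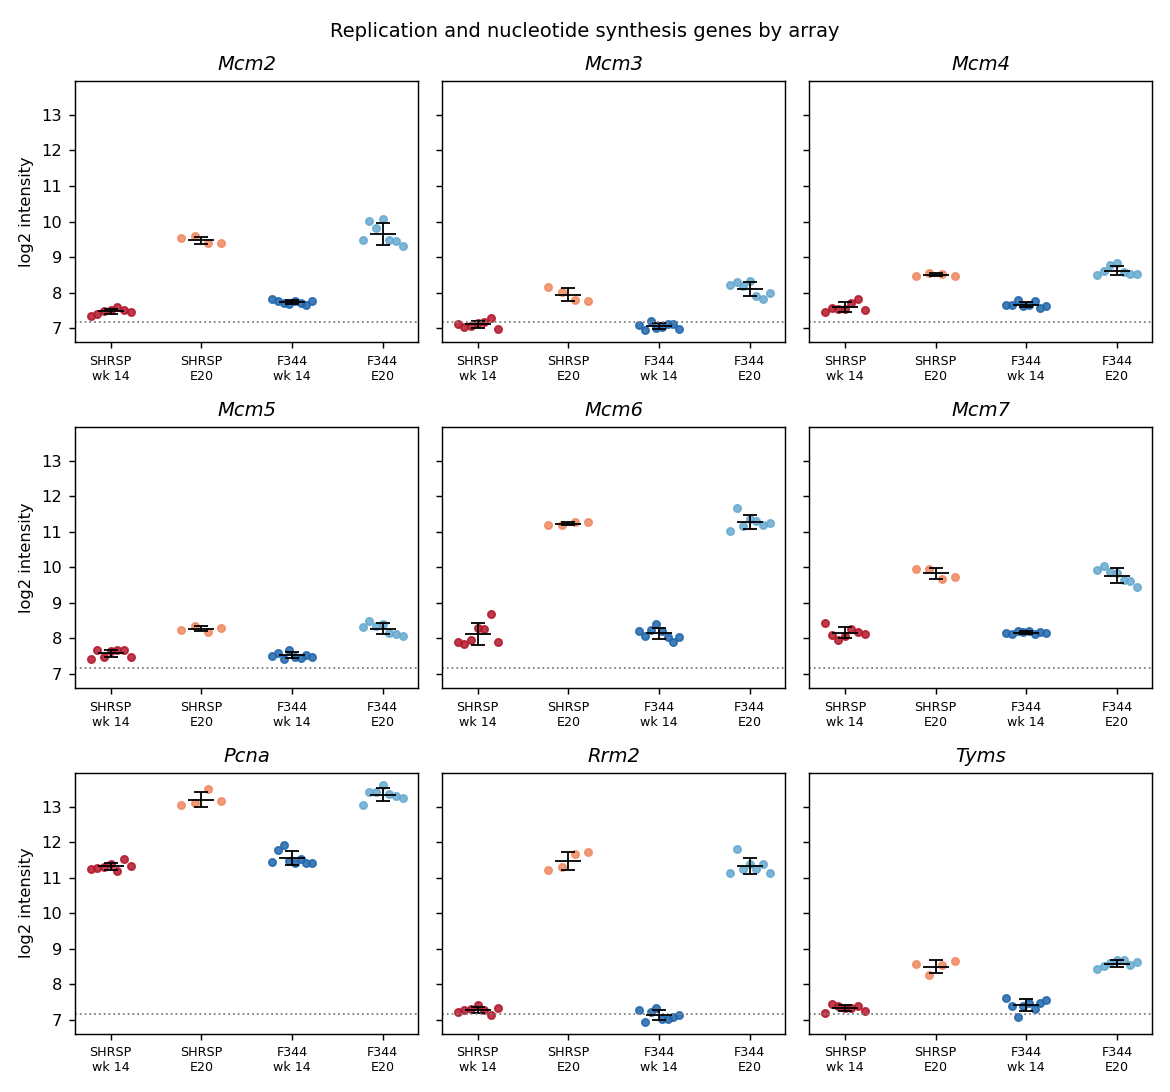
Log2 intensity of each of the 9 genes on every array (points), with the mean and SD of each group (black), in SHRSP and F344 at week 14 and E20. The dotted line is the array median of 7.16, and in each panel both week 14 groups lie below both E20 groups without overlap.

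Rrm2, the small subunit of ribonucleotide reductase whose supply in dividing cells sets the enzyme's activity, had the largest difference of the 9. Its log2 intensity ran from 7.14 to 7.42 in SHRSP at week 14 (median 7.27), against 11.20, 11.31, 11.66 and 11.71 in SHRSP at E20. In F344 it ran from 6.94 to 7.34 at week 14 (median 7.10), against 11.13 to 11.81 at E20 (median 11.25). The week 14 values thus lay around the array median of 7.16, and without detection values per sample a signal there cannot be told from background. As measured, Rrm2 was lower at week 14 by at least 18.2-fold in SHRSP (log2 difference -4.19 ± 0.11 SE, adjusted p = 7.42e-21) and by at least 18.4-fold in F344 (-4.20 ± 0.09, adjusted p = 5.93e-23), both folds being lower bounds if the adult signal is background.

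Tyms, the other enzyme of DNA precursor supply among the 9, showed a smaller measured difference, and its adult values too lay near the array median. Its values ran from 7.18 to 7.43 in SHRSP at week 14 (median 7.34), against 8.56, 8.25, 8.53 and 8.65 in SHRSP at E20. In F344 they ran from 7.09 to 7.62 at week 14 (median 7.43), against 8.42 to 8.69 at E20 (median 8.61). The groups were far apart relative to their spread, and the log2 difference was -1.17 in each strain, or 2.25-fold (SE 0.08 in SHRSP, adjusted p = 3.18e-12, and SE 0.07 in F344, adjusted p = 4.88e-14).

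The 6 MCM genes encode subunits of the same ring, yet their measured differences were spread widely. Mcm6 had the largest, with 7.83 to 8.70 in SHRSP at week 14 (median 7.95), against 11.19, 11.20, 11.27 and 11.27 in SHRSP at E20. In F344 Mcm6 ran from 7.91 to 8.41 at week 14 (median 8.13), against 11.03 to 11.66 at E20 (median 11.26). The 4 fetal SHRSP hearts were nearly identical, while the adult SHRSP hearts spread over more than they did, with replicate 6 the highest at 8.70. Mcm6 was lower at week 14 by 8.66-fold in SHRSP (-3.11 ± 0.13, adjusted p = 7.01e-17) and by 8.82-fold in F344 (-3.14 ± 0.10, adjusted p = 5.32e-19).

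Mcm2, which carries a histone-binding tail, ran from 7.35 to 7.60 in SHRSP at week 14 (median 7.48), against 9.53, 9.59, 9.40 and 9.39 in SHRSP at E20. In F344 it ran from 7.65 to 7.82 at week 14 (median 7.73), against 9.30 to 10.07 at E20 (median 9.47). Its adult values were tight in both strains and its fetal F344 values were not (SD 0.05 at week 14 and 0.31 at E20). Mcm2 was lower at week 14 by 4.02-fold in SHRSP (-2.01 ± 0.10, adjusted p = 9.03e-15) and by 3.81-fold in F344 (-1.93 ± 0.08, adjusted p = 2.42e-16).

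Mcm7, a core subunit of the helicase and host gene of a microRNA cluster, ran from 7.96 to 8.42 in SHRSP at week 14 (median 8.12), against 9.94, 9.96, 9.68 and 9.73 in SHRSP at E20. In F344 it ran from 8.11 to 8.20 at week 14 (median 8.17), against 9.44 to 10.03 at E20 (median 9.83). The 8 adult F344 hearts lay within the narrowest range of any group for this gene. Mcm7 was lower at week 14 by 3.18-fold in SHRSP (-1.67 ± 0.09, adjusted p = 1.28e-14) and by 3.03-fold in F344 (-1.60 ± 0.07, adjusted p = 3.79e-16). It stood just inside the limit of 1.5 log2 units, and its 95% interval reached -1.49 in SHRSP and -1.45 in F344.

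Mcm4, a subunit phosphorylated when origins fire, Mcm3 and Mcm5, which sit side by side in the ring, had smaller measured differences. Mcm4 ran from 7.46 to 7.83 in SHRSP at week 14 (median 7.55), against 8.48, 8.55, 8.53 and 8.47 at E20, and from 7.58 to 7.78 in F344 at week 14 (median 7.65), against 8.50 to 8.83 at E20 (median 8.57). The log2 difference of Mcm4 was -0.91 ± 0.06 in SHRSP (adjusted p = 5.08e-12), and that in F344 was -0.96 ± 0.05 (adjusted p = 2.54e-14). Adult and fetal hearts were thus again fully separate. Mcm3 ran from 6.98 to 7.28 in SHRSP at week 14 (median 7.11), against 8.17, 8.02, 7.80 and 7.77 at E20, and from 6.95 to 7.20 in F344 at week 14 (median 7.06), against 7.83 to 8.32 at E20 (median 8.18). Like Rrm2, Mcm3 lay around the array median in adult hearts, so its difference is a lower bound in size if that signal is background, and its place among the MCM genes is not settled. The measured log2 difference of Mcm3 was -0.83 ± 0.09 in SHRSP (adjusted p = 1.01e-08), and that in F344 was -1.04 ± 0.07 (adjusted p = 2.2e-12).

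Mcm5 ran from 7.43 to 7.67 in SHRSP at week 14 (median 7.65), against 8.25, 8.36, 8.18 and 8.29 in SHRSP at E20. In F344 it ran from 7.43 to 7.68 at week 14 (median 7.50), against 8.07 to 8.50 at E20 (median 8.31). This was the smallest of the 9 measured differences, at -0.69 ± 0.07 in SHRSP (adjusted p = 4.42e-09), with -0.76 ± 0.06 for F344 (adjusted p = 1.44e-11). The dimmer second probe of Mcm5 gave -0.48 and -0.60, in the same direction and smaller. Between the ends of the MCM family the intervals did not meet: in SHRSP the 95% interval was -3.37 to -2.86 for Mcm6 and -0.83 to -0.55 for Mcm5. Differences between genes were not tested, since each probe has its own range above background.

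Pcna kept a high level in adult hearts. Its log2 intensity ran from 11.19 to 11.51 in SHRSP at week 14 (median 11.30), against 13.05, 13.10, 13.49 and 13.15 in SHRSP at E20. In F344 it ran from 11.40 to 11.91 at week 14 (median 11.45), against 13.04 to 13.62 at E20 (median 13.34). The adult values of Pcna, unlike those of Rrm2, Tyms, Mcm2, Mcm3, Mcm4 and Mcm5, were thus far above the array median of 7.16. Pcna was lower at week 14 by 3.67-fold in SHRSP (-1.88 ± 0.10, adjusted p = 2.47e-14) and by 3.48-fold in F344 (-1.80 ± 0.08, adjusted p = 7.39e-16).

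**Figure D2:**
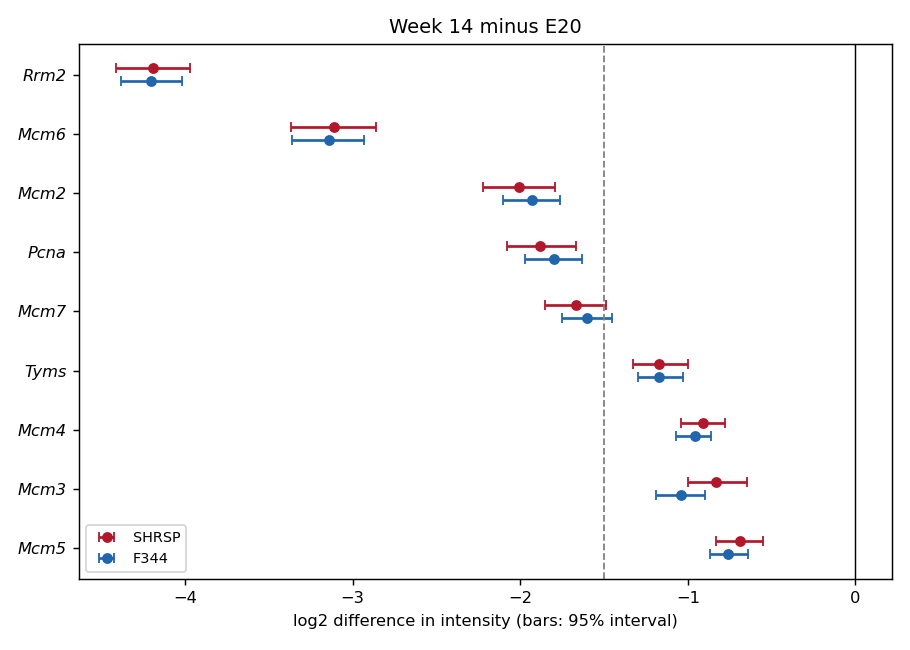
Log2 difference of each gene, week 14 minus E20, in SHRSP (red, upper) and F344 (blue, lower), with 95% intervals from limma. The dashed line marks -1.5, and Rrm2, Mcm6, Mcm2, Pcna and Mcm7 lie beyond it in both strains.

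The genes whose promoter window held an E2F motif and those without 1 covered overlapping ranges. In SHRSP the differences were -2.01 for Mcm2, -0.69 for Mcm5, -3.11 for Mcm6, -1.67 for Mcm7 and -1.17 for Tyms, all with a motif, and -1.88 for Pcna and -0.83 for Mcm3, both without. With so few genes this is a description and no test was made.

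In bulk tissue, fewer cells of a type and less RNA per cell cannot be told apart, and other cell types moved with stage as well. Of 9 fibroblast markers, 5 were lower and 3 higher at week 14 in SHRSP and 6 were lower and 3 higher in F344. Collagen Col1a1 stood at -2.07 in each strain. The 3 higher markers were Dcn, Lum and Pdgfra, with Dcn the highest of the list at 1.6 in SHRSP and 1.61 in F344. The mean of this list ran from 9.76 to 10.15 in SHRSP at week 14, against 10.75 to 10.76 at E20, and from 9.68 to 10.14 in F344 at week 14, against 10.60 to 10.86 at E20. Of 9 erythroid markers, 6 were lower in SHRSP and 4 in F344, and none was higher. The erythroid mean ran from 7.92 to 8.07 in SHRSP at week 14, against 8.57 to 8.73 at E20, and from 7.81 to 8.04 in F344 at week 14, against 8.37 to 8.51 at E20. All 7 macrophage markers were higher at week 14 in both strains, with list means of 8.78 to 9.37 in SHRSP at week 14, against 7.85 to 8.03 at E20, and 9.02 to 9.54 in F344 at week 14, against 7.72 to 8.09 at E20. Of 7 endothelial markers, 2 in SHRSP and 3 in F344 were higher and none in SHRSP and 1 in F344 were lower, and of 4 smooth muscle markers 2 were higher in each strain and 1 in SHRSP and 2 in F344 were lower. Of 2 atrial markers, the light chain Myl7 stood at -6.24 in SHRSP and -2.46 in F344, and the natriuretic peptide Nppa at 1.13 in SHRSP and -1.45 in F344. Of 8 lymphocyte markers, 3 were higher and 1 was lower in SHRSP, and 6 were higher and none was lower in F344. Of 9 ventricular cardiomyocyte markers, 6 were higher in SHRSP and 5 in F344, and none was lower. The part of these cell types in the lower replication genes was not tested. Of 9 genes often used as references, 4 were lower and 3 higher in SHRSP and 5 lower and 3 higher in F344, and their mean ran from 12.32 to 12.49 in SHRSP at week 14, against 12.35 to 12.45 at E20, and from 12.43 to 12.55 in F344 at week 14, against 12.41 to 12.61 at E20.

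The rest of the replication machinery was read through lists of other genes. Of 19 genes of origin licensing and firing, 16 were lower and 1 was higher in each strain, with a median difference of -0.48 in both. Gmnn, geminin, which blocks relicensing by binding Cdt1, stood at -3.17 in SHRSP and -2.75 in F344. Orc6, a subunit of the origin recognition complex, stood at -2.24 and -2.12, Gins1, of the GINS complex that joins the helicase, at -2.07 and -1.99, and Dbf4, the activator of the kinase Cdc7, at -1.59 and -1.48. The helicase gene Recql4 was the exception, at 0.16 in SHRSP and 0.15 in F344, with group means from 7.29 to 7.47, near the array median.

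At the replication fork, 24 of 30 genes were lower in each strain, and 3 in SHRSP and 2 in F344 were higher, with a median of -0.86 in SHRSP and -0.66 in F344. Prim1, the catalytic primase subunit, stood at -2.63 and -2.27, the clamp loader subunits Rfc4 and Rfc3 at -2.21 and -1.88 and at -2.0 and -1.57, and Pole2, a subunit of polymerase epsilon, at -2.0 and -2.01. Pold4 and Pole4, small subunits of polymerases delta and epsilon, were higher at week 14, at 0.55 and 0.66 and at 0.67 and 0.62. Subunits of the same polymerase thus did not all move one way.

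Of 13 genes of deoxynucleotide supply, 8 were lower and 1 was higher in each strain, with a median of -0.37 in SHRSP and -0.25 in F344. Dctpp1, a dCTP pyrophosphatase, stood at -2.59 and -2.02, Nme1, a nucleoside diphosphate kinase, at -2.12 and -1.78, Dctd, the dCMP deaminase that feeds Tyms, at -0.84 and -1.34, and Dtymk, thymidylate kinase, at -0.60 and -0.81. Cmpk2, a mitochondrial nucleotide kinase, was higher, at 0.47 and 0.43. Rrm2b, the small reductase subunit used outside S phase, is no gene of the naming rule and is given as the counterpart of Rrm2: it stood at 0.03 and -0.02, neither of which passed, with a mean of 7.10 in SHRSP at week 14 and 7.07 at E20, close to the array median. Of 12 genes of purine and pyrimidine synthesis, 6 in SHRSP and 5 in F344 were lower and none was higher. Among them Adss2, of AMP synthesis, stood at -1.21 and -1.12, Paics, of purine ring synthesis, at -1.11 and -0.78, Dhodh, the mitochondrial pyrimidine enzyme, at -0.85 and -1.01, and Umps, which completes UMP, at -0.82 and -0.86.

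Among 9 genes of E2F factors, pocket proteins and their partners, 4 were lower and 3 higher in SHRSP and 5 lower and 3 higher in F344. E2f1, the activator E2F, stood at -1.21 and -1.20, its dimer partner Tfdp1 at -0.90 and -0.92, and Lin54, of the MuvB complex, at -0.73 and -0.71. The pocket protein Rbl2, p130, which with repressor E2Fs silences these genes in resting cells, was higher, at 0.85 and 1.06, as were Rb1, at 0.19 and 0.20, and Tfdp2, at 0.32 and 0.40. The dimer partners Tfdp1 and Tfdp2 thus lay on opposite sides of 0. Of 13 mitotic genes, 11 were lower in each strain, with medians of -2.33 and -2.28. None was higher in SHRSP, and 1 was in F344 (Ccnb1, at 0.09). The group means of Ccnb1, from 6.93 to 7.05, all lay below the array median of 7.16. Its signal cannot be told from background. The largest differences were those of Cdk1, the mitotic kinase, at -3.95 and -4.31, its cyclin Ccnb2 at -3.96 and -4.19, Ccna2, at -3.01 and -3.18, and the spindle motor Kif11, at -3.02 and -3.18. A second, dimmer Kif11 probe showed a smaller gap in the same direction. Its mean was 6.96 at week 14 against 7.49 at E20 in SHRSP, and 6.96 against 7.58 in F344.

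**Figure D3:**
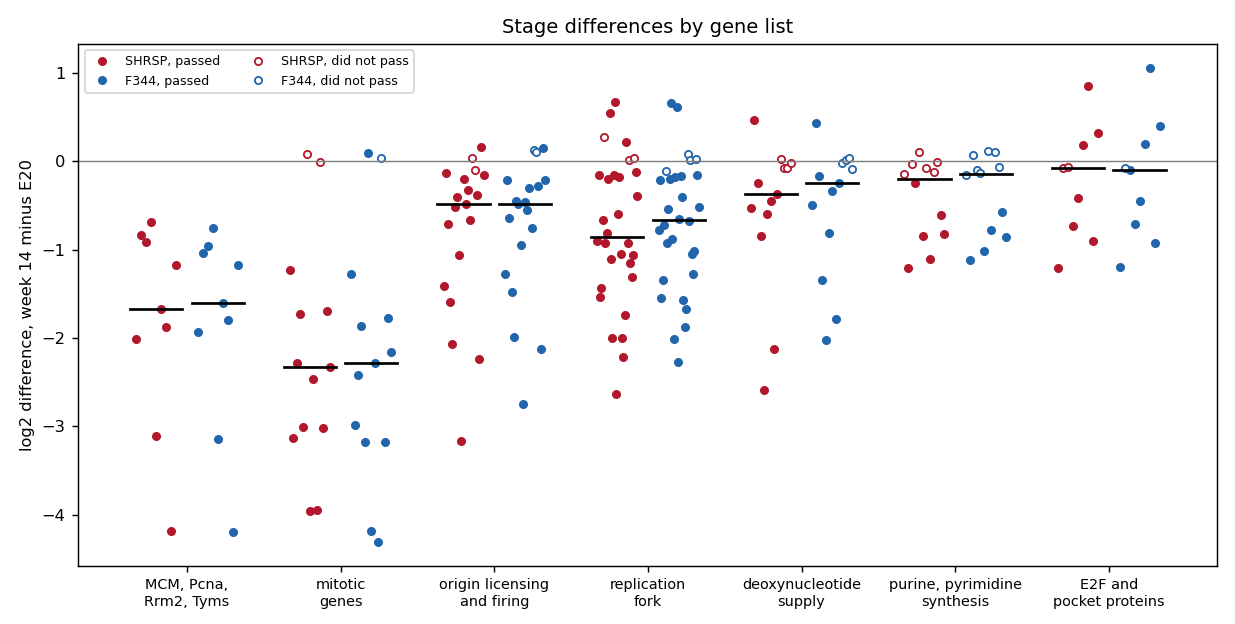
Log2 difference, week 14 minus E20, of every gene of the 9 measured replication genes and of 6 further lists, in SHRSP (red, left of each pair) and F344 (blue, right), with filled points past an adjusted p of 0.05 and the median as a black line. The 9 genes have medians of -1.67 and -1.60, between those of the mitotic genes (-2.33 and -2.28) and the replication fork genes (-0.86 and -0.66).

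By the root mean square difference over 26 arrays, after each profile was centred on its own mean, the genes nearest to the mean profile of the 9 were Cdca7 (0.099), Armcx2 (0.115), Fam111a (0.117), Bub1b (0.119), Smc2 (0.128) and Nasp (0.131). Cdca7 is a Myc and E2F target, Fam111a encodes a protease that acts at replication forks, Bub1b a spindle checkpoint kinase, Smc2 a condensin subunit and Nasp a histone chaperone. These genes lay nearer than any of the 9 themselves, of which Mcm2 was the nearest (0.149) and Rrm2 the farthest (1.168). The measure follows the size of the stage difference: the 6 genes stood between -2.09 and -1.68 in SHRSP and between -2.02 and -1.72 in F344.

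The comparison of SHRSP with F344 asked whether the replication genes differ between a strain with a large and a strain with a small left ventricle. At week 14 none of the 9 genes passed the adjusted p in limma, while 8.95% of all probes did, and at E20 none passed, while 3.21% of all probes did. The shares were larger among the 6214 probes with a mean above 8 in any group. At week 14, 778 of these passed as higher and 804 as lower in SHRSP, and with that filter 1 of the 9 genes, Mcm2, passed. At E20, 326 passed as higher and 303 as lower, and none of the 9 genes did. Differences ran from -0.25 to 0.15 log2 units at week 14 and from -0.18 to 0.14 at E20. The smallest unadjusted p-values in limma at week 14 were those of Mcm2 (0.00597) and Pcna (0.0142), both lower in SHRSP. The smallest at E20 was that of Mcm3 (0.0658). The share of all probes under an unadjusted p of 0.05 was not counted, so no count of genes is given.

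Mcm2 came closest to a strain difference. In adult hearts SHRSP had 7.35 to 7.60 (median 7.48), against 7.65 to 7.82 in F344 (median 7.73). These values lay not far above the array median of 7.16. Every SHRSP heart lay below every F344 heart, which held for 287 of 22523 probes (1.27%) and for no other of the 9 genes. The reverse, every SHRSP heart above every F344 heart, held for 474 probes and for none of the 9 genes. Mcm2 was picked out of the 9 genes after the values were seen. The log2 difference was -0.25 (95% interval -0.43 to -0.08), with an adjusted p of 0.0628 in limma. The fit takes 1 spread from all 4 groups, in which the SD of Mcm2 was 0.08 in SHRSP and 0.05 in F344 at week 14 and 0.10 and 0.31 at E20. With only the adult arrays fitted, the adjusted p was 0.00013. Over 36 alternatives the difference ran from -0.28 to -0.23, the adjusted p ran from 0.00013 to 0.124 and 7 of them passed, among them those without F344 E20 replicate 2, 4 or 7 (adjusted p 0.0336, 0.0236 and 0.0348).

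Pcna, which was also lower in SHRSP at week 14, had 11.19 to 11.51 (median 11.30), against 11.40 to 11.91 in F344 (median 11.45), and these ranges overlap. Its log2 difference of -0.22 (95% interval -0.39 to -0.05, adjusted p = 0.118) passed in none of 36 alternatives. Rrm2 pointed the other way, at 0.15 (-0.03 to 0.33, adjusted p = 0.394). For Mcm6, Mcm7 and Tyms the week 14 intervals were -0.23 to 0.20, -0.15 to 0.14 and -0.22 to 0.05, and for Mcm3, Mcm4 and Mcm5 they were -0.09 to 0.20, -0.17 to 0.05 and -0.06 to 0.18. Measured adult strain differences beyond 0.23 log2 units in these 6 genes thus lie outside the intervals. For genes with adult values near the array median, such as Mcm3 and Tyms, the intervals do not bound the mRNA difference. Background alone would give a measured difference near 0 there.

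In fetal hearts the largest difference was that of Mcm2, at -0.18 (-0.39 to 0.03, adjusted p = 0.594), followed by Mcm3 at -0.17 (-0.34 to 0.01, adjusted p = 0.501). Rrm2 stood at 0.14 (-0.08 to 0.35) and Pcna at -0.14 (-0.35 to 0.07). The ranges of the strains overlapped for all 9 genes at E20, and the intervals are wider than at week 14 because only 4 SHRSP arrays were available.

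**Figure D4:**
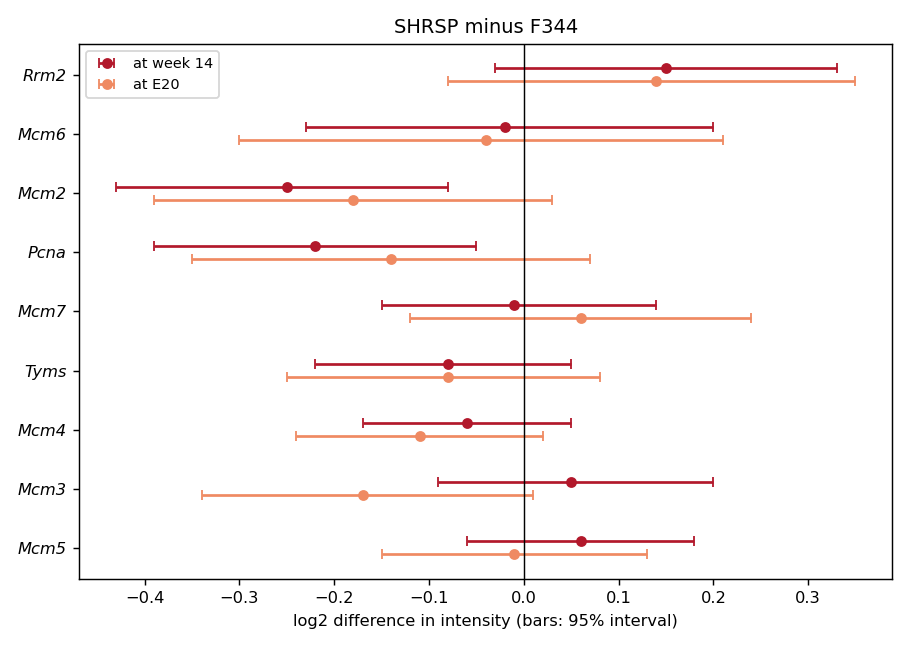
Log2 difference of each gene, SHRSP minus F344, at week 14 (dark red, upper) and at E20 (orange, lower), with 95% intervals from limma that are not adjusted for the number of probes. The week 14 intervals of Mcm2 (-0.43 to -0.08) and Pcna (-0.39 to -0.05) lie below 0, and all other intervals include it.

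The stage difference was compared between the strains by the interaction term, the difference in SHRSP minus that in F344. None of the 9 genes passed, while 2.96% of all probes did. Among the 6214 probes with a mean above 8 in any group, 388 passed above 0 and 203 below, and again none of the 9 genes. The largest was Mcm3, at 0.22 (95% interval -0.01 to 0.45, adjusted p = 0.462), and Rrm2 and Tyms were the closest to 0, at 0.01 (-0.27 to 0.30) and 0.00 (-0.21 to 0.21). The intervals of Mcm2, Mcm6 and Pcna reached -0.35 to 0.20, -0.31 to 0.36 and -0.35 to 0.19.

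Of the 96 genes of the 6 lists, 11 (11.5%) differed between the strains at week 14, against 8.95% of all probes, and 5 (5.21%) at E20, against 3.21%, so their shares were near those of all probes. By list, the week 14 count was 2 of 19 for origin licensing and firing, 4 of 30 for the fork, 0 of 13 for deoxynucleotide supply, 4 of 12 for purine and pyrimidine synthesis, 0 of 9 for E2F and pocket proteins and 1 of 13 for mitotic genes. Prim1 was lower in SHRSP than in F344 at week 14 by 0.47 log2 units (difference -0.47, adjusted p = 0.00049), as were Rnaseh2b, of RNase H2, at -0.33, Pold2, of polymerase delta, at -0.26, Orc5 at -0.26 and Pole3, of polymerase epsilon, at -0.19 (and -0.21 at E20), while Mcm10, a fork factor outside the ring, was higher at 0.23, as was Cdk1 at 0.36. In nucleotide synthesis Dhodh, Ppat, Paics and Ctps1 were lower at week 14, at -0.39, -0.37, -0.26 and -0.24, and Dhodh and Ctps1 also at E20, at -0.56 and -0.47. Rfc2, a clamp loader subunit, was higher in SHRSP at E20 by 0.75 (adjusted p = 2.6e-10), with 8.14 to 8.41 in SHRSP against 7.30 to 7.59 in F344. Dctd was lower at E20 by 0.58 (difference -0.58), with 7.75 to 7.83 in SHRSP against 8.26 to 8.54 in F344. A sequence difference between the strains under a probe was not tested. T and NK cell markers also differed between the strains at week 14, with 5 of 8 lymphocyte markers lower in SHRSP and list means of 7.26 to 7.41 in SHRSP against 7.67 to 8.06 in F344. Of the other marker lists, Myl7 (-3.76), Mrc1 (-0.99) and Dcn (-0.22) were lower in SHRSP at week 14. Nppa (2.78), Col1a2 (0.55) and Emcn (0.45) were higher. The part of these cell types in the values of Mcm2 and Pcna was not tested.

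Among hearts of 1 group the genes did not all vary together. In F344 at E20, replicate 2 or 4 was the highest array for 8 of the 9 genes, and for Mcm3, Mcm5 and Mcm7 all of replicates 1 to 4 lay above all of replicates 5 to 7. Mcm7, for example, read 9.93, 10.03, 9.86 and 9.83 in replicates 1 to 4, against 9.64, 9.61 and 9.44 in replicates 5 to 7. In SHRSP at E20 the closest pairs split the genes: replicates 1 and 2 were above replicates 3 and 4 for Mcm2, Mcm3 and Mcm7, and below them for Mcm6, Pcna and Rrm2. The mean of the 9 genes was nevertheless almost the same on those 4 arrays, at 9.81 to 9.84, against 9.73 to 10.10 over the 7 F344 arrays at E20. In adult hearts this mean ran from 7.93 to 8.13 in SHRSP and from 7.99 to 8.09 in F344, and SHRSP replicate 6 was the highest for 4 genes (Mcm3, Mcm4, Mcm6 and Pcna) and the lowest for Rrm2. These splits were seen in the values and have no test.

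**Figure D5:**
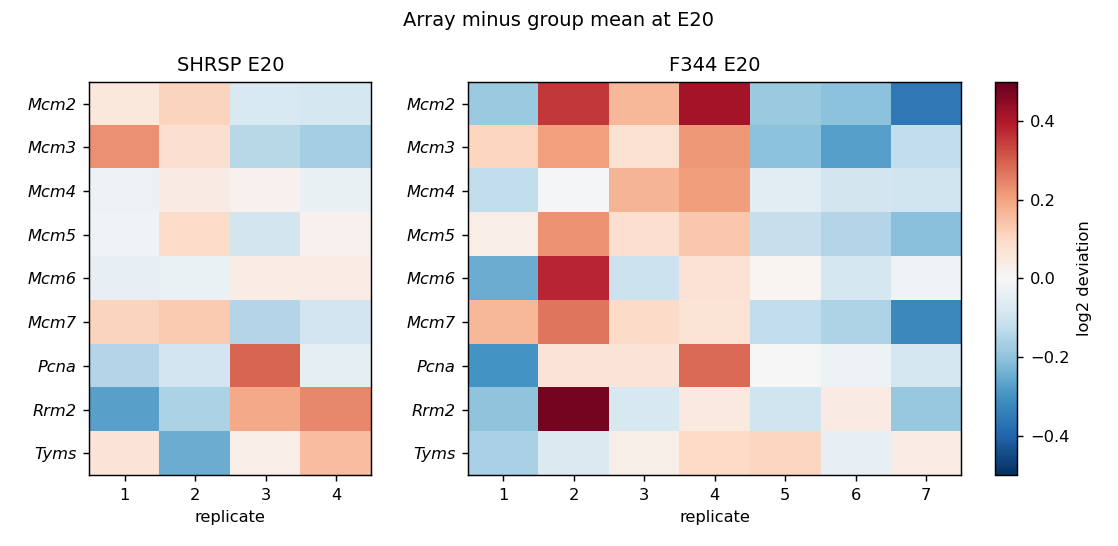
Log2 intensity minus the group mean for each gene (rows) and array (columns) in fetal hearts of SHRSP (left) and F344 (right). Rrm2 of F344 replicate 2, at 11.81, is the farthest above its group, and in SHRSP replicates 1 and 2 and replicates 3 and 4 take opposite signs for Mcm2, Mcm3, Mcm7, Mcm6 and Rrm2.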

How the data were processed

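RNA of single male rat hearts was hybridised to Illumina RatRef-12 arrays. The values deposited by the authors are log2 intensities, preprocessed in GenomeStudio and quantile-normalized, with arrays of low correlation within a group removed, according to the study's methods. These steps force all arrays onto 1 distribution. A second table holds 52 columns whose names match no sample label, and it was not used. No detection p-value was available per sample, so a low value cannot be told from background.

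Of 22523 probes, 13793 carried 1 gene name and 8730 none, and 13752 names were updated by gene ID. A gene was read by its named probe with the highest mean over 26 arrays. limma 3.58.1 (R 4.3.3) fitted 4 group means to all probes, and Benjamini-Hochberg adjustment ran over all probes. Intervals are 95% and SE is that of the model. On simulated data for 22523 probes with the sizes of these groups, 97 of 100 changes of 0.75 log2 units were recovered for week 14 against E20 in SHRSP. The p-values set each group difference against 1 spread between animals, taken from all 4 groups, and treat the animals as independent. The labels do not say which animals share a litter.

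The members and lists were chosen with earlier results of these data known. The text names the members, up to 4 genes of each list with the largest mean stage difference that passed in both strains, genes that went against their list, genes with a strain difference or interaction, and the 6 nearest genes. Of the marker and reference lists, only the counts, levels or genes that touch a result are given.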

Additional observations from a re-analysis of the deposited data

Results flagged for a closer look

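Rrm2 in fetal F344 hearts had 1 array far from the rest: replicate 2 stood at 11.81, the next highest at 11.38, and this gap was 0.636 of the whole range of 7 arrays. Chance flags about 1 in 20 groups of this kind, and 1 was found in 52 tested here. The stage difference of Rrm2 stayed between -4.24 and -4.12 in F344 over all 36 alternatives.

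Of the 96 genes of the 6 lists around the members, 3 (3.12%) had a stage difference that differed between the strains by the interaction term in limma, a share close to the 2.96% of all probes. Rfc2 differed by -0.65, with -1.05 in SHRSP and -0.40 in F344. Dctpp1 differed by -0.57, with -2.59 in SHRSP and -2.02 in F344. Dctd differed by 0.50, with -0.84 in SHRSP and -1.34 in F344.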

How the results depend on the processing

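The stage differences of all 9 genes kept their direction and passed in both strains under all 36 alternatives, with a highest adjusted p of 2.16e-06 (Mcm3 in SHRSP). The count of genes with a strain difference at week 14 was 0 and became 1, Mcm2, with only the groups compared, with a robust intensity trend (adjusted p 0.0431), with probes above the median mean (0.0375), with probes that had a group mean above 8 (0.0314) and, leaving out each array, ran from 0 to 1. With the filter at 8, calls over all probes were 4695 in SHRSP and 4804 in F344, of 6214 probes tested. Without it they were 7362 and 8045 of 22523, so the share called was larger with the filter. Calls between strains at E20 were 1228 with array weights and 343 with the close SHRSP E20 pairs averaged, an alternative chosen after seeing the data (723 otherwise), and interaction calls were 415 with those pairs averaged (667 otherwise), and the cause was not tested.

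Signs that turned belonged to differences near 0 that never passed, and the cause was not tested. For E20, Mcm5 was 0.02 with array weights and 0.01 with cyclic loess. At week 14, Mcm7 was 0.02 with cyclic loess. The interaction of Tyms was 0.01 with the replicate block and 0.00 with array weights. Leaving out each array, E20 ranges were -0.04 to 0.03 (Mcm5), -0.09 to 0.02 (Mcm6) and -0.13 to 0.00 (Tyms), week 14 ranges were -0.11 to 0.03 (Mcm6) and -0.05 to 0.03 (Mcm7), and interaction ranges were -0.07 to 0.07 (Mcm6), -0.13 to 0.02 (Pcna), -0.08 to 0.09 (Rrm2) and -0.08 to 0.05 (Tyms).

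Replicate numbers did not pair the arrays: over 33 same-numbered pairs the correlation of deviations had a median of 0.03, and 5 of 26 arrays correlated best with their own number. With the replicate block, 9 genes passed in each strain and none between strains, and 6969 and 7962 probes passed over all. Background correction, quantile normalization from raw values and the slide as a block were not run, because the raw columns carry no sample name.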
